A study of Mus musculus with 2 samples.

Results

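Genes that make cholesterol, fatty acids and milk fat were followed through the luminal-derived cells of 2 mouse mammary tumors. The 39 genes were named from pathway knowledge and found by symbol among the 32285 genes of the count matrices. They were set apart as 17 sterol members (the mevalonate and cholesterol pathway with its regulators Insig1 and Srebf2), 15 fatty acid members (synthesis, elongation and desaturation, with Srebf1) and 7 lipid droplet members (triglyceride assembly, the droplet coat and milk fat secretion). All 39 had UMIs in both mice.

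Both mice were Krt8-CreERT/Rosa26-mTmG/MMTV-PyMT animals. MMTV-PyMT drives the polyoma middle T oncogene from a promoter active in mammary epithelium, and Krt8-CreERT makes a recombinase, active after tamoxifen, in cells with the luminal keratin Krt8, so that the mTmG reporter turns green only in such cells and their descendants. Each mouse was given tamoxifen at 150 mg/kg on 6 days, split between weeks 5 and 6 of age, and tumors were taken at a volume of 1.5 cm3. Green cells free of the endothelial and leukocyte surface markers were sorted, and 1 droplet library with unique molecular identifiers (UMIs) was made for each mouse. There was no second condition and no untreated animal, so the comparisons are between the 18 clusters of cells that the authors' annotation gives, with the mouse as the replicate (n = 2).

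Annotated cells numbered 3829 in mouse 1 and 5330 in mouse 2, with 58629906 and 56972644 UMIs and a median of 15014 and 9470 UMIs per cell. The libraries shared 20 cell barcodes, 9 of them among annotated cells. Levels are UMIs per 1000000 UMIs (CPM) of all cells of a cluster in 1 mouse, given as mouse 1 then mouse 2. The UMIs come from transcript ends and are not divided by transcript length, so a level is compared between clusters and not between genes.

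Cholesterol is built from acetyl-CoA through mevalonate, isoprenoid units, squalene and lanosterol, and SREBP2, the product of Srebf2, turns on nearly every enzyme of that route when membrane sterol is low. INSIG1 holds the SREBPs back when sterol is plentiful. SREBP1, from Srebf1, drives the enzymes that make, elongate and desaturate fatty acids, and the mammary gland raises this program at lactation to make milk fat. There, diacylglycerol acyltransferases close the triglyceride, perilipin 2 coats the droplet, and xanthine oxidoreductase (Xdh) with butyrophilin (Btn1a1) takes part in its release as a milk fat globule.

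Promoter windows were available for 29 of the 39 members (14 sterol, 12 fatty acid and 3 lipid droplet members) in the RefSeq annotation of GRCm38.p6. A window runs from 250 bases before to 50 bases after an annotated start. 4 short motifs were searched on both strands: CCAAT, the NF-Y box; GGGCGG, the GC box bound by SP1; TCACNCCAC, the sterol regulatory element of textbook form; and CACGTG, an E-box that SREBP1 can also bind. CCAAT was in a window of 14 of 14 sterol members (100%), against 41.1% of the 27025 genes of the table, and GGGCGG was in 13 of 14 (92.9%) against 38.2%. TCACNCCAC was in 1 of 14, Hmgcs1, against 1.44% of all genes, and CACGTG in 3 of 14 against 8.09%. Of the fatty acid members, 8 of 12 held CCAAT and 6 of 12 held GGGCGG. Some genes have more than 1 window, and counted by window the sterol members held CCAAT in 14 of 17 (82.4%) against 37.4% of 32851 windows. No test was made of these shares.

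The 150 bases before the start are printed 5′ to 3′ on the gene's strand for 5 sterol members that carry the cluster results or the regulation: Hmgcs1, the first committed step, at chr13:119690201-119690350 on the plus strand; Idi1, the sterol member whose highest cluster stood furthest above its median cluster, at chr13:8885456-8885605, plus; Cyp51 at chr5:4104698-4104847, minus; Dhcr7, the last step to cholesterol, at chr7:143830064-143830213, plus, before the most downstream of its 3 annotated starts; and Insig1 at chr5:28071262-28071411, plus. Capitals mark CCAAT or its reverse complement ATTGG, the GC box as GGGCGG or CCGCCC, and TCACNCCAC.
Hmgcs1: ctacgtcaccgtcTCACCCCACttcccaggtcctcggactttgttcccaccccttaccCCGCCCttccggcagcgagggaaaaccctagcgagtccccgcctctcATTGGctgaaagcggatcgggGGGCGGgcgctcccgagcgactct
Idi1: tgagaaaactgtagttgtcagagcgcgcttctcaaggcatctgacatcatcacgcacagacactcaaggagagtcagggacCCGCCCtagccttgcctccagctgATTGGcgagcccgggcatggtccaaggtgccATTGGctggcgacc
Cyp51: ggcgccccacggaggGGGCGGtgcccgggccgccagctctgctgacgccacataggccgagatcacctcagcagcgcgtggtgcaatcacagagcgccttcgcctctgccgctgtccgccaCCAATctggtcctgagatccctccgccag
Dhcr7: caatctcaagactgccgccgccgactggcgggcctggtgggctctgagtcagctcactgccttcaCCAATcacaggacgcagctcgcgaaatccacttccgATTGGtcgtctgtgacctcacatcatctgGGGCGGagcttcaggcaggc
Insig1: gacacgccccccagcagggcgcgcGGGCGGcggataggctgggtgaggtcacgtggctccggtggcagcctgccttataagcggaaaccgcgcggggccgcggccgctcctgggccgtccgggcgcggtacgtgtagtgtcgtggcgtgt
Hmgcs1, Idi1, Cyp51 and Dhcr7 all show CCAAT within these bases. The windows of the other 2 starts of Dhcr7 hold no CCAAT. Insig1 shows the GC box here, and its CCAAT lies 216 bases before the start, outside the printed stretch. A match is a description of the letters and says nothing of binding.

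Over all annotated cells, the sterol members summed to 610.3 and 657 CPM, the fatty acid members to 868 and 1663 CPM, and the lipid droplet members to 553 and 431 CPM. The leading member Fdps gave 17.5% and 15.5% of the sterol sum. Scd1 gave 25.9% of the fatty acid sum in mouse 1 and 62.4% in mouse 2, and Plin2 gave 84.4% and 77.2% of the lipid droplet sum. Over clusters, the log2 fatty acid sum had an r with Scd1 of 0.405 in mouse 1 and 0.895 in mouse 2, and with the sum of its other members of 0.651 and 0.565. From the lowest to the highest cluster, as means of the mice, the sums spanned 2.50-fold for sterol, 3.28-fold for fatty acid and 6.51-fold for lipid droplet members. The 3 groups did not peak in the same clusters.

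**Figure D1:**
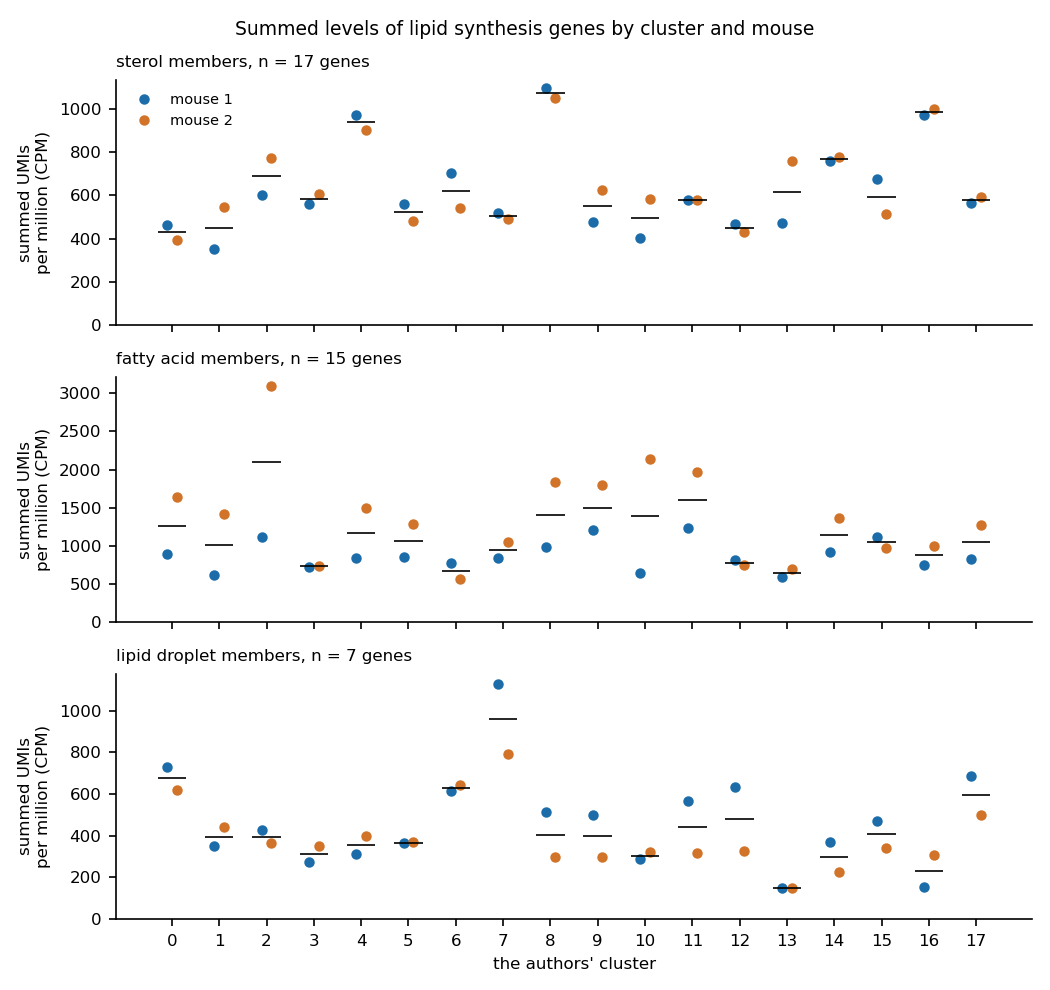
Summed CPM (vertical axis, linear from 0) of the 17 sterol, 15 fatty acid and 7 lipid droplet members in each of the 18 clusters. Points are the mice, bars their mean; the sterol sum is highest in clusters 8, 16 and 4 with the mice close together, while the fatty acid sum of cluster 2 is 1122 CPM in mouse 1 and 3088 CPM in mouse 2.

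The sterol members were highest in clusters 8, 16, 4 and 14, in that order of the means and with these 4 clusters at the top in each mouse. The sum was 1095 and 1048 CPM in cluster 8, 972 and 999 CPM in cluster 16, and 972 and 903 CPM in cluster 4. It was 756 and 776 CPM in cluster 14. The values of clusters 16 and 4 differed by less than the spread between the mice, and both mice of cluster 8 lay above both of cluster 4 and cluster 16. At the other end stood cluster 0 at 462 and 395 CPM and cluster 12 at 469 and 429 CPM. When every cell was thinned at random to 2000 UMIs, with shallower cells left out, the same 4 clusters led in the same order. The place of cluster 14 rested on Fdps, which gave 32.5% and 24.9% of its sum. Without Fdps its sum was 510.1 and 583 CPM, and its mean was below that of cluster 2 (475 and 692 CPM), while clusters 8, 16 and 4 stayed above every other cluster in each mouse.

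Clusters 16, 8 and 4 also held the most UMIs of genes made in dividing cells (Mki67, Top2a, Cdk1, Ccnb1 and Birc5). Their sum was 1340 and 1438 CPM in cluster 16, 247 and 198 CPM in cluster 8, and 194 and 160 CPM in cluster 4. Cluster 14 had 89.0 and 69.6 CPM. Over the 18 clusters, Pearson's r between the log2 sterol sum and log2(CPM + 10) of this list was 0.609 in mouse 1 and 0.675 in mouse 2. With the median UMIs of a cluster the r was 0.481 and 0.327. These are descriptions over 18 clusters that share 2 libraries. The exception on the plot of sterol sum against dividing cell genes is cluster 1, with 162 and 148 CPM of dividing cell genes and a sterol sum of 352 and 548 CPM; its cells were shallow, at a median of 1258 and 1009 UMIs.

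**Figure D2:**
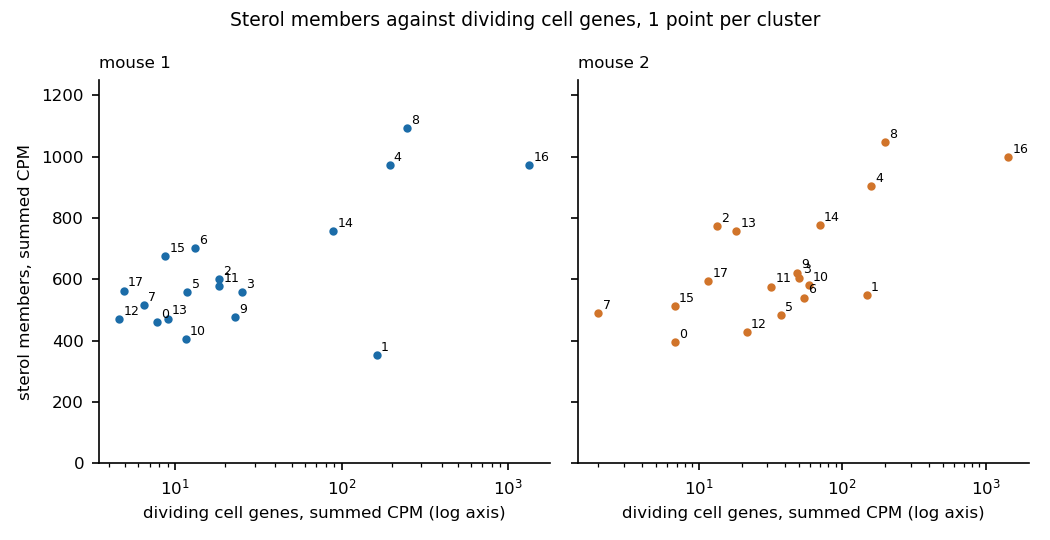
Summed CPM of the sterol members (vertical, linear from 0) against the summed CPM of 5 dividing cell genes (horizontal, log axis), 1 point per cluster and 1 panel per mouse. Clusters 4, 8, 14 and 16 sit at the upper right in both mice, and cluster 1 sits low at 162 and 148 CPM of dividing cell genes.

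Idi1, Fdps and Pmvk, of the steps up to farnesyl diphosphate, were high in these clusters. Idi1 (chr13:8885501-8892451), which isomerizes the isoprenoid unit, stood at 130.0 and 135 CPM in cluster 16, 129 and 109 CPM in cluster 8 and 101 and 102 CPM in cluster 4, against 20.3 and 14.4 CPM in cluster 0. Both mice of cluster 16 lay just above both of cluster 8, and the next highest cluster was 14 at 47.4 and 71.6 CPM. Fdps (chr3:89093588-89101959), which joins the units to farnesyl diphosphate, was at 302 and 147 CPM in cluster 8, 246 and 193 CPM in cluster 14 and 232 and 205 CPM in cluster 4. These ranges overlapped one another. Pmvk, a mevalonate kinase step, followed the same clusters, with 104 and 210.1 CPM in cluster 8 and 120.0 and 151 CPM in cluster 4.

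Among the later steps the pattern differed from enzyme to enzyme. Cyp51, which demethylates lanosterol, was highest in cluster 16 (75.8 and 69.2 CPM) and cluster 8 (72.9 and 61.7 CPM), and Nsdhl, which acts after it, was highest in cluster 8 (30.4 and 22.6 CPM). Fdft1 (squalene synthase) and Sqle (squalene epoxidase), by contrast, were highest as a mean in cluster 13, at 43.5 and 55.0 CPM and at 44.3 and 78.6 CPM. Msmo1, the sterol methyl oxidase, had its highest mean in cluster 6 with 71.5 and 54.1 CPM. Sc5d, the sterol desaturase, led in cluster 7 with 64.6 and 54.0 CPM. Ebp, the sterol isomerase, was about level between cluster 2 (99.1 and 91.4 CPM) and cluster 8 (93.9 and 95.6 CPM). So 5 enzymes of one route had their highest means outside clusters 8, 16, 4 and 14. Of these, only Fdft1 and Sc5d had the same cluster first in each mouse. The cluster of the highest mean ranked 9 in mouse 1 for Sqle. It ranked 3 in mouse 2 for Msmo1 and 4 in mouse 2 for Ebp. For Sqle the mice of cluster 13 also overlapped those of cluster 6 (76.5 and 43.4 CPM).

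The regulators did not trace the enzymes closely. Srebf2 ranged only from 26.7 and 27.9 CPM in cluster 14 to 76.7 and 63.2 CPM in cluster 16, and its r with the sterol sum over clusters was 0.257 and 0.210. Insig1, itself an SREBP target, had an r of 0.586 and 0.146. Its highest mean was in cluster 1 (39.7 and 104 CPM, from 22 and 76 UMIs), which ranked first in mouse 2 and 4 in mouse 1, where cluster 16 was highest at 66.8 CPM. It was lowest in cluster 13 (3.28 and 6.21 CPM).

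**Figure D3:**
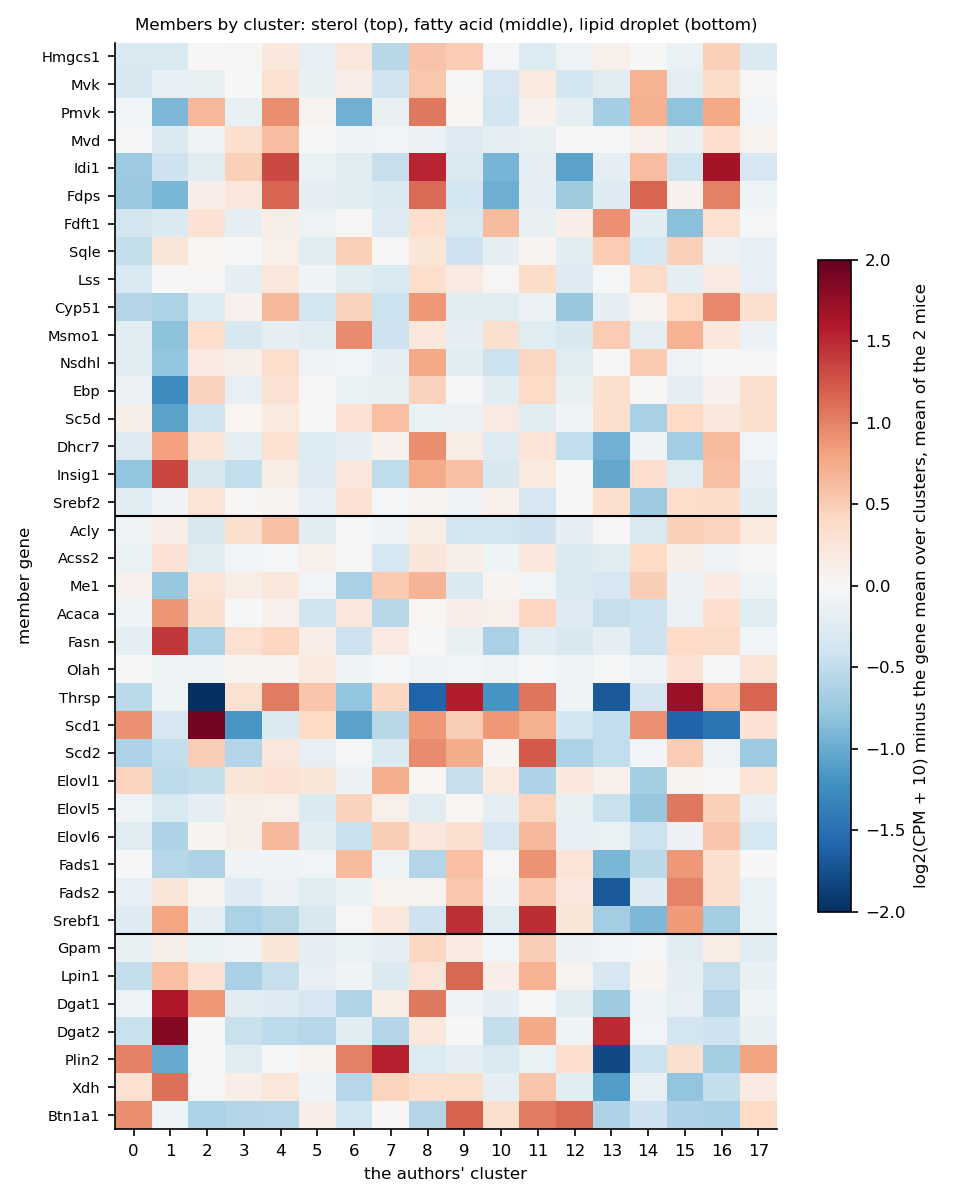
Each of the 39 members (rows, in pathway order, with lines between the 3 groups) in each of the 18 clusters (columns), as the mean of both mice of log2(CPM + 10) minus the gene's mean over clusters. Red is above and blue below that mean; Idi1 and Fdps are red in clusters 4, 8, 14 and 16, Scd1 in cluster 2 and Plin2 in cluster 7, while Fads2, Thrsp and Plin2 are blue in cluster 13.

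In the fatty acid group, Scd1 (chr19:44394455-44407879), the desaturase that makes oleate from stearate, differed more between the mice than between most clusters. Over all annotated cells it was at 225 CPM in mouse 1 and 1038 CPM in mouse 2. Mouse 2 was higher in 16 of 18 clusters, the exceptions being cluster 6 (177 and 126 CPM) and cluster 15 (124 and 81.4 CPM). The log2 ratio of mouse 2 to mouse 1 was 2.20, and of 5518 genes with a mean of at least 20 CPM only 28 (0.507%) had a larger ratio in either direction (on log2(CPM + 1)). That ratio pools all cells, and the clusters took different shares of the mice, cluster 2 holding 47 cells in mouse 1 and 662 in mouse 2. Within the 18 clusters the log2 ratio had a median of 1.58 and ran from -0.60 to 3.49. There is 1 library for each mouse, so animal and library cannot be told apart and no test was made.

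Cluster 2 was the highest for Scd1 in each mouse, at 649 and 2420 CPM from 602 and 18164 UMIs. It also held the highest fatty acid sum as a mean of the mice (1122 and 3088 CPM), and 57.8% and 78.4% of that sum was Scd1. Cluster 10 was at 243 and 1475 CPM of Scd1, rank 7 of the clusters in mouse 1 and rank 2 in mouse 2. The close neighbor Scd2 (chr19:44293674-44306864), a related desaturase that could share reads with Scd1, peaked elsewhere, at 198 and 324 CPM in cluster 11 and 120 and 354 CPM in cluster 8. For Scd2 the pooled log2 ratio of mouse 2 to mouse 1 was 0.75, with a median of 0.67 within clusters.

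**Figure D4:**
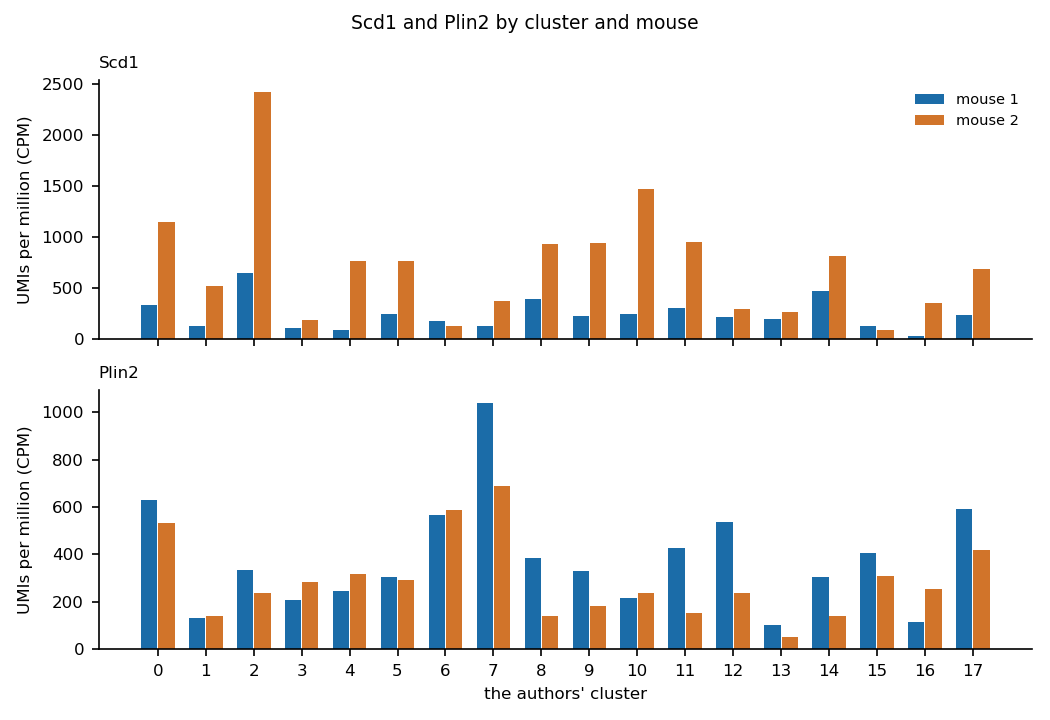
CPM of Scd1 (top) and Plin2 (bottom) in each cluster, with 1 bar per mouse on linear axes from 0. Mouse 2 is above mouse 1 for Scd1 in 16 of 18 clusters with 2420 CPM in cluster 2, and Plin2 runs from 1041 and 690.3 CPM in cluster 7 to 102 and 53.0 CPM in cluster 13.

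Other genes of the group did not follow Scd1. Thrsp, a nuclear protein that goes with lipogenesis in the liver and mammary gland, went the other way between the mice, with a pooled log2 ratio of mouse 2 to mouse 1 of -1.16, and 2.17% of those genes had a larger ratio. Within clusters its median was -0.86, and mouse 2 was higher in 3 of 18. In cluster 2, where Scd1 was highest, Thrsp was at its lowest (3.23 and 0.933 CPM), and it was highest in cluster 9 (237 and 71.8 CPM) and cluster 15 (151 and 146 CPM). Olah, the mammary thioesterase that frees medium-chain fatty acids for milk, was nearly absent, with 92 and 4 UMIs in all.

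Srebf1 (chr11:60199089-60222581) had its highest means in cluster 9, at 274 and 197 CPM, and cluster 11, at 249 and 218 CPM. The mice of these clusters overlapped each other, and cluster 9 ranked 3 in mouse 2. Clusters 9 and 11 were also among the highest for the fatty acid sum (1212 and 1792 CPM, and 1229 and 1973 CPM). Over clusters, the r of Srebf1 with the log2 sum of the fatty acid members other than Scd1 was 0.780 and 0.741; Srebf1 is itself among those members. Srebf1 also followed the mitochondrial share of UMIs, with an r of 0.619 and 0.830, and cluster 11 had a mitochondrial share of 10.0% and 11.1%. The part of RNA quality in these levels was not tested.

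Fads2, Elovl5 and Fads1, which desaturate and lengthen polyunsaturated chains, had their highest means in cluster 15. Fads2 (chr19:10062765-10101746), the first desaturase of polyunsaturated chains, stood there at 66.5 and 67.9 CPM, followed by cluster 9 (53.5 and 40.1 CPM) and cluster 11 (51.3 and 41.6 CPM). Elovl5, which lengthens polyunsaturated chains, was at 22.3 and 50.9 CPM in cluster 15, and Fads1 at 41.8 and 20.4 CPM. Cluster 15 ranked 2 in mouse 1 for Elovl5 and 5 in mouse 2 for Fads1. For Fads2 both mice of cluster 15 lay above every other cluster. In mouse 2 cluster 15 held only 17 cells. Elovl1, which lengthens saturated very long chains, was highest in cluster 7 (89.3 and 96.0 CPM), and Elovl6, which takes palmitate to stearate, in cluster 11 (29.3 and 49.4 CPM).

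Among the enzymes that supply and build palmitate, the highest cluster stood at 1.64 times the median cluster for Acly and 1.66 times for Me1, against 3.42 times for Fasn and 2.42 times for Acaca. Acly, which splits citrate to acetyl-CoA, ranged from 48.9 and 44.2 CPM in cluster 11 to 91.1 and 117 CPM in cluster 4. Me1, which makes NADPH, was highest in cluster 8 (163 and 180 CPM). Fasn, the fatty acid synthase, was at 97.4 and 210.1 CPM in cluster 1 and at most 80.8 CPM elsewhere in either mouse. Acaca (25.3 and 53.6 CPM), Dgat1 (68.6 and 114 CPM), Dgat2 (34.3 and 64.6 CPM) and Xdh (83.0 and 97.5 CPM) had their highest means in cluster 1 as well. These rest on few UMIs, 54 and 153 for Fasn, from cells with a mitochondrial share of 10.3% and 8.96%. At an even 2000 UMIs per cell Fasn in cluster 1 was at 64.9 and 98.7 CPM, from the 77 and 76 cells deep enough.

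Plin2 (chr4:86648386-86670060), the coat of the lipid droplet, set the droplet group. It was highest in cluster 7 at 1041 and 690.3 CPM, and lower in cluster 0 (629 and 531 CPM), cluster 6 (567 and 589 CPM) and cluster 17 (592 and 419.6 CPM). Both mice of cluster 7 lay above every other cluster. The lowest was cluster 13 at 102 and 53.0 CPM. Over clusters the r of the log2 droplet sum with the authors' luminal progenitor score was 0.812 in mouse 1 and 0.475 in mouse 2, and with the summed milk protein genes it was 0.620 and 0.359.

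The genes of milk fat release had their own pattern. Btn1a1 was found at 38.5 and 16.8 CPM in cluster 9 and at 33.1 and 18.04 CPM in cluster 12. It was at 22.0 and 23.4 CPM in cluster 11 and at 24.9 and 16.6 CPM in cluster 0. Its level was under 1 CPM in clusters 2, 13, 15 and 16, with 1 and 0 UMIs in cluster 13. Xdh, outside cluster 1, was highest in cluster 11 (52.5 and 64.1 CPM). Lpin1, a phosphatidate phosphatase, peaked with Srebf1 in cluster 9 (44.9 and 23.9 CPM). Dgat2, outside cluster 1, was at 18.04 and 62.9 CPM in cluster 13 and at 17.1 and 17.3 CPM in cluster 11. Gpam, the mitochondrial acyltransferase of the first step, had its highest mean in cluster 11 (4.89 and 12.1 CPM), which ranked 5 in mouse 1.

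The members were about as repeatable between the mice as other genes. Among 8574 genes that reached 20 CPM in a cluster, the median r between the mice over the 18 clusters was 0.709. It was 0.600 for 14 sterol, 0.701 for 13 fatty acid and 0.766 for 6 lipid droplet members that reached that level.

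Genes most like each group were ranked among 8541 others by the lower of the 2 mice's r over the 18 clusters with the group's mean log2(CPM + 10). For the sterol members these were Aarsd1 (0.838), Haus7, Hint1, Mlec and Umps, and of the sterol genes outside the members Stard4, a sterol carrier, came at place 20 (0.708) and Acat2, an acetyl-CoA thiolase, at place 66 (0.664). For the fatty acid members they were Hlf (0.736), Xbp1, Arhgef28, C1qtnf1 and Pde9a. For the lipid droplet members they were Tgfb3 (0.853), Slc26a2, Pdzd2, Irx2 and Vamp1.

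Cluster 6, which the study calls lumino-basal, was compared with cluster 13, its mature luminal cluster, the comparison on which the study's single-cell work turned. In the labelled cells of cluster 6, Plin2, the polyunsaturated desaturases Fads1 and Fads2, Elovl5, Thrsp, Insig1 and Dhcr7 were higher, and Dgat2, Scd1 and Fdft1 were lower. Cells were summed per mouse, giving 3410589 and 1590251 UMIs for cluster 6 and 1219562 and 2417170 UMIs for cluster 13, and tested by edgeR's quasi-likelihood method, blocked by mouse, with p-values adjusted by Benjamini-Hochberg over 9794 genes. Since the clusters had been found from these same counts, what is tested is whether the 2 animals show each difference alike.

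Of the 39 members, 35 passed the filter on low counts, the others being Lss, Olah, Gpam and Btn1a1. Among those tested 7 were higher in cluster 6, 3 were lower and 25 did not pass, which is 28.6% called against 28.4% of all genes tested (16.3% higher and 12.1% lower). The members' share is thus near the background. Their median log2 fold change was 0.05, against 0.01 for all genes. By group, 2 of 16 sterol members were higher and 1 lower (median -0.14), 4 of 14 fatty acid members were higher and 1 lower (median 0.52), and 1 of 5 lipid droplet members was higher and 1 lower (median 0.50).

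These counts leaned on each sum. DESeq2 called 3 higher (Plin2, Fads1 and Fads2) and 1 lower (Dgat2). With cells thinned to 2000 UMIs 2 were higher (Plin2 and Insig1) and 0 lower among those still tested. Fdft1 and Scd1 were tested with thinned cells and lost their calls. Fads1, Fads2, Dgat2, Elovl5, Thrsp and Dhcr7 did not pass the filter on low counts there and were not tested. Without the cluster 6 sum of mouse 2 edgeR called 0 of all genes, with 3053 at an unadjusted p under 0.05, and Plin2 had an adjusted p of 0.093. Without the cluster 6 sum of mouse 1, 2 members were higher and 0 lower. Without the cluster 13 sum of mouse 1 there were 4 and 1, and without that of mouse 2 there were 5 and 1. Fads1 and Dgat2 lost their calls without either cluster 6 sum (adjusted p from 0.13 to 0.17), and Fads2 without that of mouse 2 (adjusted p = 0.067).

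Plin2 had the smallest adjusted p of the droplet members. It was at 567 and 589 CPM in cluster 6 and 102 and 53.0 CPM in cluster 13, with both mice of cluster 6 far above both of cluster 13 (log2 fold change 2.88, SE 0.26, adjusted p = 9.6e-11). Dgat2, which closes the triglyceride, went the other way, at 4.69 and 3.14 CPM in cluster 6 and 18.04 and 62.9 CPM in cluster 13, with no overlap but a wide spread in cluster 13 (log2 fold change -3.10, SE 0.47, adjusted p = 2.4e-06). Its isozyme Dgat1 was at 9.38 and 13.8 CPM against 8.20 and 11.6 CPM and did not pass (adjusted p = 0.88). Of the remaining droplet genes, Xdh was at 16.4 and 27.0 CPM against 12.3 and 10.3 CPM (adjusted p = 0.12).

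Fads1 and Fads2, neighbors on chromosome 19, were close to absent in cluster 13. Fads2 was at 29.3 and 22.0 CPM in cluster 6 and at 1.64 and 2.48 CPM in cluster 13, the latter from 2 and 6 UMIs (log2 fold change 3.39, SE 0.52, adjusted p = 2.7e-06). Fads1 was at 25.5 and 21.4 CPM in cluster 6 and at 3.28 and 0 CPM in cluster 13, from 4 and 0 UMIs, and a count of 0 allows up to 1.24 CPM there (log2 fold change 4.14, SE 0.64, adjusted p = 3.8e-06). The values of the clusters did not overlap for either gene. Cluster 13 was the lowest of the 18 clusters for both genes in each mouse.

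The other fatty acid members that passed were smaller changes. Elovl5 was at 17.9 and 21.4 CPM in cluster 6 and 4.10 and 7.45 CPM in cluster 13 (log2 fold change 1.64, SE 0.45, adjusted p = 0.0048). Thrsp was at 27.9 and 10.7 CPM against 9.02 and 1.66 CPM (1.89, SE 0.48, adjusted p = 0.0025), a pair of ranges that came near each other. Scd1 was at 177 and 126 CPM against 197 and 266 CPM and fell by 0.71 on the log2 scale (SE 0.26, adjusted p = 0.037). The Scd1 call was lost with DESeq2, without the mouse block (adjusted p = 0.12), with thinned cells and without cells that held genes of another cell type, and without any 1 of the 4 sums (adjusted p from 0.12 to 0.51). Acaca (20.5 and 19.5 against 5.74 and 12.0 CPM, adjusted p = 0.060) and Srebf1 (105.0 and 59.1 against 49.2 and 40.1 CPM, adjusted p = 0.055) did not pass, though their values did not overlap. Thrsp lost its call with DESeq2 (adjusted p = 0.32), without the mouse block (0.097) and without 3 of the 4 sums (0.18 to 0.53, all but mouse 1 of cluster 13), and Elovl5 with DESeq2 (0.44) and without 3 of the 4 sums (0.12 to 0.18, all but mouse 2 of cluster 13).

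**Figure D5:**
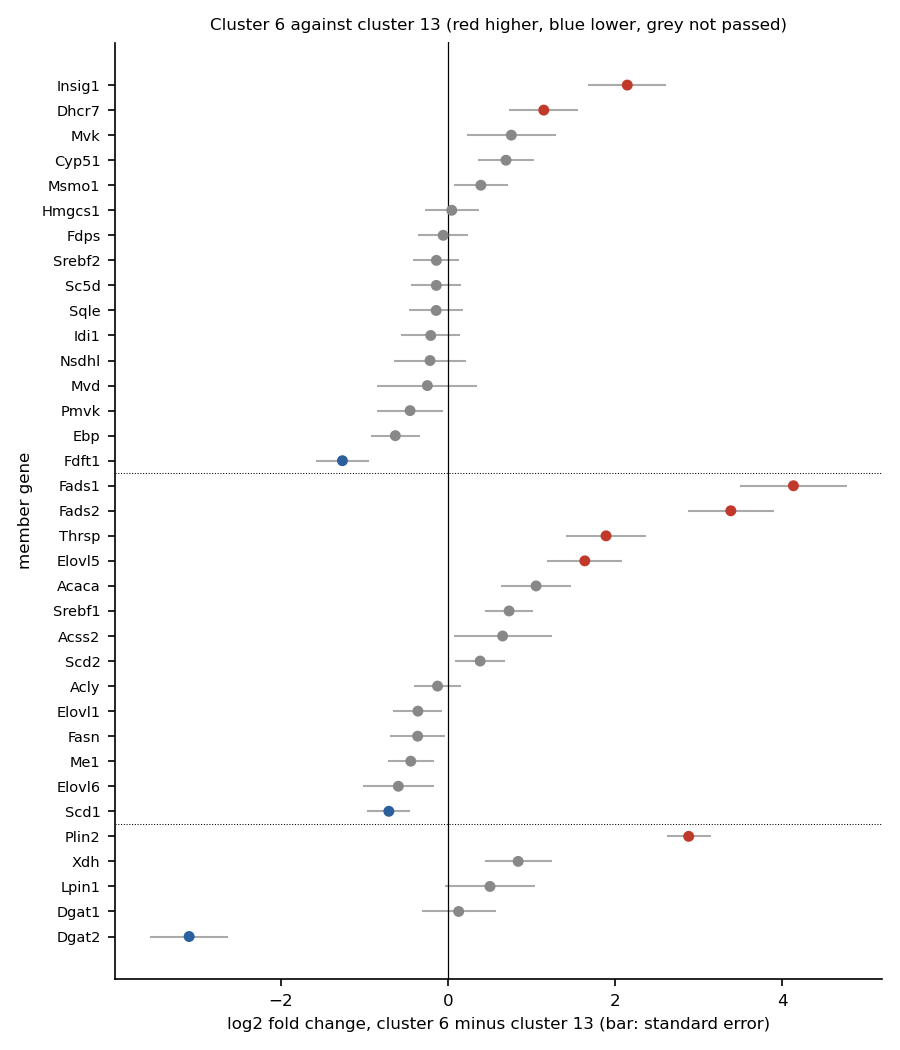
Log2 fold change of cluster 6 minus cluster 13 (horizontal axis) for the 35 members tested, in the order sterol, fatty acid and lipid droplet. Bars are the standard error, worked back from the F statistic. Red points passed as higher and blue as lower by edgeR (adjusted p below 0.05), and grey did not pass; Fads1 is highest at 4.14 and Dgat2 lowest at -3.10.

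Among the sterol members the enzymes were mixed. Insig1 was at 35.2 and 17.0 CPM in cluster 6 against 3.28 and 6.21 CPM in cluster 13 (log2 fold change 2.15, SE 0.47, adjusted p = 4.7e-04), and Dhcr7 at 31.1 and 17.0 CPM against 8.20 and 10.8 CPM (1.15, SE 0.42, adjusted p = 0.035). Fdft1, the step that commits the route to sterol, was at 17.9 and 26.4 CPM against 43.5 and 55.0 CPM (-1.26, SE 0.32, adjusted p = 0.0024). The clusters did not overlap for these 3 genes. All 3 lost their calls with DESeq2 (adjusted p from 0.20 to 0.68), and each did without the cluster 6 sum of either mouse (adjusted p from 0.082 to 0.33). Fdft1 and Dhcr7 lost theirs without either cluster 13 sum as well, and Insig1 without that of mouse 1. Dhcr7 also lost its edgeR call without the mouse block (adjusted p = 0.079), and Fdft1 with thinned cells (adjusted p = 0.051). The other 13, such as Hmgcs1 (37.8 and 37.1 against 26.2 and 42.6 CPM, adjusted p = 0.94) and Fdps (104 and 57.2 against 61.5 and 91.4 CPM, adjusted p = 0.93), did not pass.

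The mice pulled in opposite directions for much of the sterol group. The log2 ratio of the summed level in cluster 6 to that in cluster 13 was 0.57 in mouse 1 and -0.49 in mouse 2 for sterol members, and 0.41 and -0.29 for fatty acid members. For the lipid droplet members it was 2.06 and 2.12. Without Plin2 the droplet ratio was 0.01 and -0.80, so the agreement of the mice came from that gene. The sign was the same in both mice for 7 of 16 sterol, 10 of 14 fatty acid and 4 of 5 lipid droplet members, against 73.7% of all genes tested. The values of the clusters did not overlap for 18 of 35 members (51.4%), against 62.2% of all genes.

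Genes of the same pathways outside the members were counted from the same fit, to be read against 16.3% of all genes tested called higher and 12.1% lower. Of 18 sterol genes tested 2 were higher in cluster 6 and 3 lower (27.8% called, against 28.4% of all genes), and both that were higher, Abca1 (a cholesterol exporter, 39.6 and 89.9 against 9.02 and 11.2 CPM, log2 fold change 2.56) and Mylip (which degrades the LDL receptor, 2.11), belong to sterol efflux and uptake and are known targets of the oxysterol receptors. Abcg1, another exporter of the same kind, was lower (-1.92). Of 20 fatty acid genes 7 were higher and 4 lower (55% called), with Lpl, the lipoprotein lipase, at 7.33 and 85.5 against 0 and 4.14 CPM (4.33) and G6pdx, which makes NADPH, at 9.68 and 12.6 against 25.4 and 60.8 CPM (-1.94). Elovl4 (3.58) and Hacd1 (2.69), both of very long chain synthesis, were higher. The adjusted p was 0.0027 or less for each of these named genes.

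Of 15 glycerolipid and droplet genes 3 were higher and 5 lower (53.3% called). Mgll, the monoglyceride lipase, was at 49.0 and 57.9 CPM against 4.92 and 4.96 CPM (log2 fold change 3.34, adjusted p = 3.7e-08), and Mfge8, a protein of the milk fat globule membrane, at 1666 and 558 CPM against 335 and 94.3 CPM (2.34, adjusted p = 1.5e-10). Gpat3, an acyltransferase of the first step (-3.58, adjusted p = 2.2e-04), and Fitm2, which helps droplets form (-2.76, adjusted p = 2.2e-05), were lower together with Dgat2. Of 12 fatty acid oxidation genes 3 were lower and 9 did not pass, a share of 25% that is near the 28.4% of all genes: Cpt1a, the gate of mitochondrial entry (-1.26, adjusted p = 0.0067), Acadl (-0.93, adjusted p = 0.0027) and Acads (-0.84, adjusted p = 0.037). Of the 8 milk protein genes 2 were tested, and Csn3, a casein, was higher at 1663 and 1752 CPM against 306 and 331 CPM (2.33, adjusted p = 3.2e-11).

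Genes of some other cell types were higher in cluster 6. All 6 fibroblast markers were higher there, with a summed level of 1472 and 2850 CPM against 27.1 and 232 CPM, as were all 8 basal and myoepithelial markers (3596 and 3698 against 43.5 and 76.9 CPM) and both endothelial markers tested of 4. The luminal keratins and claudins were at 9091 and 7996 CPM in cluster 6 and 31001 and 29798 CPM in cluster 13, with 7 of 8 lower in cluster 6. Among 10 adipocyte markers, Adipoq, Cidec, Retn, Cfd and Car3 had 0 UMIs in all 4 sums. The list summed to 36.9 and 134 CPM in cluster 6 against 36.1 and 57.1 CPM in cluster 13, almost wholly from Fabp4 and Lipe. Fabp4 was called higher in cluster 6 (21.1 and 113 against 0 and 23.2 CPM). Lipe was called lower (15.2 and 19.5 against 36.1 and 33.5 CPM). The macrophage list summed to 18.2 and 9.43 CPM against 5.74 and 7.86 CPM, with Adgre1 at 0. Clusters with lymphoid and myeloid markers had been removed by the authors beforehand.

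In cluster 6, 24 of 260 cells in mouse 1 and 40 of 167 in mouse 2 held UMIs of at least 3 markers of another cell type. The lists were adipocyte, fibroblast, macrophage, T and NK cell and endothelial, and no cell of cluster 13 did so. Without those cells 9 members were higher and 2 lower, Acaca and Srebf1 joining the higher ones and Scd1 dropping out. Plin2, Fads1, Fads2 and Dgat2 stayed past the threshold. The droplet ratio was 2.22 on the log2 scale without those cells. Named genes outside the members, such as Lpl, Abca1 and Mgll, are given only with those cells included. The sums over cells do not separate fewer cells with a gene from less RNA of it per cell. Shares of cells with a UMI are not compared here.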

How the data were processed

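Single-cell libraries of 2 tumors were made with a droplet 3′ kit. The matrices deposited by the authors give UMI counts, not normalized, for the barcodes called as cells by Cell Ranger (6.0.1) on mm10. Their deposited cell annotation, made with Seurat after doublets, shallow cells and cells rich in mitochondrial reads had been removed, gives a cluster for each cell, the mitochondrial fraction of UMIs, and for the luminal progenitor, mature luminal and basal signatures a fraction between 0 and 1 and a squared distance, a score per cell. Of these only the cluster and the 0 to 1 value were used here.

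From the counts, UMIs were summed per mouse and cluster and divided by the sum's total (CPM). Cells of barcodes without an annotation entered no comparison. Cluster 6 was compared with cluster 13 with edgeR (4.0.16; filterByExpr, TMM, quasi-likelihood F test, mouse as a block, threshold 0.05 on the Benjamini-Hochberg adjusted p over all genes), after a check on simulated counts. Both clusters come from the same animals, so the mouse pairs the sums (r of the mouse difference across 9794 genes, 0.139). The fit had 1 residual degree of freedom. The SE of a log2 fold change is its absolute value divided by the square root of the F statistic. DESeq2 (1.42.0) was an alternative. The other clusters were described without a test. No label ties the replicates beyond the animal. Pearson's r used log2 values, with 10 CPM added to single genes and lists. The sums had 502579 UMIs or more in all but 1 case, cluster 15 of mouse 2 with 294706, and intervals and floors cover counting error only.

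Gene positions are from GENCODE vM21 (GRCm38), and promoter windows from RefSeq. The members and gene lists were chosen with earlier results of these data known. Named were all 39 members, up to 4 called genes of largest change in each other list, and the 5 genes most like each group. Alternatives were other size factors, no count filter, DESeq2, no mouse block, thinning to 2000 UMIs (random seed 1), removal of cells with markers of another type, and leaving out each sum. Code and edgeR ran in R 4.3.3 and Python 3.11.15.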

Additional observations from a re-analysis of the deposited data

Results flagged for a closer look

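Barcodes that were called as cells but carry no annotation, 2346 in mouse 1 and 2208 in mouse 2, also held UMIs of the members, in data outside the comparisons above. The sterol sum was 242.3 CPM in mouse 1 and 330.7 CPM in mouse 2, against 610.3 and 657 CPM in annotated cells. The fatty acid sum was 480.0 and 815.0 CPM, against 868 and 1663 CPM, and the lipid droplet sum was 226.1 and 355.5 CPM, against 553 and 431 CPM. A count of 3 UMIs would be 0.665 and 0.658 CPM in these pools, so each sum was far above that floor. Mitochondrial transcripts took 56.7% and 38.6% of the UMIs of these barcodes. With mitochondrial UMIs left out of the totals, the sums were 559 and 539 CPM for sterol, 1108 and 1327 CPM for fatty acid and 522 and 579 CPM for lipid droplet members, against 653 and 699 CPM, 929 and 1769 CPM, and 592 and 458 CPM in annotated cells. What these barcodes hold was not tested.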

How the results depend on the processing

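In cluster 6 against cluster 13, 2782 genes passed, and 7 members were higher and 3 lower. DESeq2 gave 997 genes, with 3 members higher and 1 lower, and thinned cells 1080 genes, with 2 and 0, among 4705 genes tested. Leaving out 1 of the 4 sums gave 0 to 1387 genes, 0 to 5 members higher and 0 to 1 lower, the lone sum of a cluster being assumed to vary like the other cluster. The 0 came without the cluster 6 sum of mouse 2, and the counts without the others were 714 (cluster 6, mouse 1), 1281 (cluster 13, mouse 1) and 1387 (cluster 13, mouse 2). Without the replicate block there were 1996 genes, 5 members higher and 2 lower. Other size factors gave 2745 genes and no count filter 3119, each with 7 and 3 members, and cells free of markers of other types 2583, with 9 and 2. Without the filter, and in DESeq2, the median log2 fold change of all genes was 0.18. The lipid droplet ratio of 2.09 was 2.64 with thinned cells, 2.22 without cells with markers of other types and -0.39 without Plin2. The sterol and fatty acid ratios moved by less than the spread of the mice under each alternative, and without 1 mouse ran from -0.49 to 0.57 and from -0.29 to 0.41. Members that did not pass changed sign with thinned cells (Fdps 0.063, Msmo1 -0.10, Acly 0.16) and without cells with markers of other types (Fdps 0.092, Sqle 0.030, Sc5d 0.025, Dgat1 -0.094). With a sum left out, the ranges that spanned 0 were Hmgcs1 -0.30 to 0.39, Pmvk -1.37 to 0.24, Mvd -0.96 to 1.04, Idi1 -0.83 to 0.50, Fdps -0.55 to 0.36, Sqle -0.65 to 0.34, Msmo1 -0.026 to 0.90, Srebf2 -0.30 to 0.010, Acly -0.27 to 0.020, Fasn -1.04 to 0.25, Scd2 -0.17 to 1.00, Elovl6 -1.52 to 0.072 and Dgat1 -0.18 to 0.35. The cause was not tested. With 2 animals of 1 condition and 1 residual degree of freedom, a member that did not pass is not shown to be alike in both clusters.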
